A study of Homo sapiens with 36 samples.

Results

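Hormone-responsive breast cells change the steroids that reach them, and 9 human genes for steroid-converting enzymes were followed here across the hormone treatments of ZR-75-1 cells, an established human breast cancer cell line. The genes were AKR1C1, AKR1C2 and AKR1C3 of the aldo-keto reductases, the hydroxysteroid dehydrogenases HSD11B2, HSD17B4, HSD17B8 and HSD17B11, the reductase SRD5A1 and the steroid sulfatase STS. They were chosen by name with earlier results of these arrays known, so their values are given as a description and carry no p-value. They were 9 of the 18665 genes and held 15 of the 48803 probes on the array, and 7 of the 9 passed the filter on dim probes.

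Gene expression was measured on 36 arrays, with 4 arrays in each of 9 groups, and every culture of the line was grown without phenol red in serum stripped of steroids. Cells at passage 16 were exposed for 16 h to vehicle (2 ppm) or to a single hormone at 10 nM. These hormones were estradiol (E2), progesterone (P4), the synthetic progestin medroxyprogesterone acetate (MPA) and the potent natural androgen dihydrotestosterone (DHT). Other cells received 10 nM E2 together with 10 nM of P4, MPA or DHT for 16 h (E2+P4, E2+MPA and E2+DHT). In the last group, E2pre+P4, cells received E2 for 72 h and P4 for 16 h, each at 10 nM. The sample labels place P4 in the last 16 h of the E2 exposure whereas the protocol text places it after, so whether E2 was still present with P4 was not settled. A group with 72 h of E2 alone was not analysed here, so an effect of P4 and an effect of the long E2 cannot be told apart. The labels do not say whether the 4 replicates were separate cultures, so the SDs and intervals below cover the spread between these arrays, which may be technical, in a single cell line. In bulk RNA of this kind, fewer cells expressing a gene and less RNA of it per cell cannot be told apart.

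The enzymes act at different steps. AKR1C1 and AKR1C2 reduce ketone groups of steroids and inactivate progesterone and DHT, respectively, whereas AKR1C3, also called type 5 17β-hydroxysteroid dehydrogenase, reduces the 17-ketone of weak androgens and estrogens to give the active hormones. HSD11B2 oxidises cortisol to cortisone and so keeps cortisol from the receptors of the cell. HSD17B4 is a peroxisomal enzyme that oxidises estradiol and fatty acids, HSD17B8 takes part in mitochondrial fatty acid synthesis and can oxidise estradiol, and HSD17B11 acts on androgens and sits on lipid droplets. SRD5A1 reduces testosterone to DHT and progesterone to its 5α-metabolites, and STS removes the sulfate from stored estrogens and androgens.

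AKR1C1, AKR1C2 and AKR1C3 lie next to each other among the protein-coding genes of chromosome 10. The 250 bases before a listed start site of each are shown to compare the start regions of these neighbouring genes. They are RefSeq sequence on GRCh38.p14, written 5′ to 3′ toward the start, with the CCAAT box (ATTGG when read on the other strand) in capitals. The AKR1C1 window is chr10:4963165-4963414 on the plus strand, the AKR1C2 window chr10:5003858-5004107 on the minus strand, and the AKR1C3 window chr10:5048531-5048780 on the plus strand.
AKR1C1: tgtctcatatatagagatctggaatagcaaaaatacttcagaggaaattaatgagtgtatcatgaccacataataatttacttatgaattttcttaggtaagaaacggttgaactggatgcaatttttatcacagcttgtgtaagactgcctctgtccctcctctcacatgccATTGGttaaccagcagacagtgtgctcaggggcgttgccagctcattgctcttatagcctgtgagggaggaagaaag
AKR1C2: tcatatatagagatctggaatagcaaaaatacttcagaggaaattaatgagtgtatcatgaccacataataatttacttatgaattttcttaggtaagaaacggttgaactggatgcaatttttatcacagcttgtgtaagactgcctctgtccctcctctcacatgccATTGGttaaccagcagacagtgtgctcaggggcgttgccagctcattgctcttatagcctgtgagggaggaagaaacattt
AKR1C3: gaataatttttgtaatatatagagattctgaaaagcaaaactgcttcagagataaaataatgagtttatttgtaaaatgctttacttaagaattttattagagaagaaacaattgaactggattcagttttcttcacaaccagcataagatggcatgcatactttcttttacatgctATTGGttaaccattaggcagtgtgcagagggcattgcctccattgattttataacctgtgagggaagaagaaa

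The AKR1C1 and AKR1C2 windows shared an unbroken run of 245 bases, and 245 of 246 aligned bases were identical. Against the AKR1C3 window shown the identity was 74% for AKR1C1 and 74.4% for AKR1C2. A CCAAT box (CCAAT, both strands) lay 77 bases before the start of AKR1C1, 81 before that of AKR1C2 and 73 before that of AKR1C3, and 32% of the 35116 RefSeq windows of this length held it. The AKR1C3 window shown also held the letters of a TATA box (TATAAA, here read on the other strand) 26 bases before its start, a motif in 10.7% of windows. AKR1C3 had another listed start, with the window chr10:5094164-5094413, which is not shown. That window had its CCAAT box 86 bases before the start and no TATAAA, and its identity was 73.6% to AKR1C1 and 74% to AKR1C2. All motifs were searched on both strands. The androgen and progesterone receptor motif AGAACA was in 12.4% of all windows and in none of the AKR1C windows, nor were its palindrome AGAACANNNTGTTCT (which contains it), the estrogen receptor motifs AGGTCA and GGTCANNNTGACC (which share letters), the AP-1 motif TGANTCA or the antioxidant motif TGACNNNGC. The shares of all windows with these 5 were 0.00285%, 12.1%, 0.0399%, 6.57% and 10.9%. RefSeq windows were at hand for 8 of the 9 genes, all but HSD11B2, and the AGAACA motif was found in 1 of them, STS. STS had 5 windows, more than any other of these genes, so its count is not comparable with the share per window.

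Levels are given as log2 of the background-corrected, quantile normalised probe intensity, and a probe was taken as above background on an array at a detection p-value under 0.01. Each array had between 12191 and 14806 probes above background (median 13403.5), and the dimmest such probe lay between 6.59 and 7.56 on the log2 scale. A value below that range has no reliable order. The markers of luminal breast epithelium were above background on all 36 arrays for 7 of 7 genes, among them ESR1, GATA3 and FOXA1. The basal keratins KRT5 and KRT14, the leukocyte genes PTPRC and CD3D, the fibroblast genes COL1A2 and DCN and the endothelial gene CDH5 were above background on 0 arrays, while COL1A1 was so on 36, CD68 on 35 and PECAM1 on 1. Levels of different probes are not compared with each other.

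A pair of arrays stood against their labels, and this touches the results most. SERPINA3, a progestin-induced gene, was at 12.42 on replicate 2 of E2, where the other E2 arrays lay between 9.30 and 9.52, and at 9.42 on replicate 2 of E2pre+P4, where the others lay between 12.47 and 12.88. FKBP5, which encodes a chaperone of steroid receptors, showed the same (11.51 against 9.52 to 10.04, and 9.35 against 11.20 to 11.48). The E2-induced gene PDZK1 showed the opposite, at 10.23 against 11.30 to 11.43 in E2 and at 11.15 against 9.78 to 10.40 in E2pre+P4. These arrays may have been exchanged, which was not tested further. No array was moved to another group, and results that rest on these 2 arrays are given with all 36 arrays and with the other 34.

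AKR1C3 was the member with the widest spread of levels over the groups, and it was above background on 19 of 36 arrays. Its 4 vehicle arrays were all below background, at 5.81, 5.99, 5.49 and 6.38. P4 alone gave 6.70, 6.40, 6.68 and 6.73, each above every vehicle array but all below background, where the order is not reliable. MPA alone gave 7.87, 7.29, 7.71 and 7.19, and DHT alone gave 7.82, 7.44, 7.02 and 7.56, with 3 of 4 arrays above background in each. The MPA and DHT arrays thus covered the same range, and all 8 lay above the vehicle and the P4 arrays.

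With E2 present, E2+MPA gave 8.05, 8.04, 8.05 and 7.88, the tightest group of all (SD 0.083, n = 4) and the only cotreatment with 4 of 4 arrays above background. E2+DHT gave 7.66, 7.19, 6.81 and 6.95, and E2+P4 gave 7.32, 6.61, 6.99 and 6.56, so that these groups overlapped. E2 alone gave 6.70, 9.72, 5.86 and 6.49, of which the 9.72 of replicate 2 was the only value above background. E2pre+P4 gave 9.44, 6.81, 9.75 and 9.76, of which replicate 2 was the only value below background. Without the 2 arrays in doubt, E2pre+P4 had the highest level of any group (9.65 ± 0.18 SD, n = 3), and E2 was at 6.35 ± 0.44 (n = 3).

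Without those arrays vehicle, E2 and P4 had 0 arrays above background for AKR1C3 and are not ordered. Ordered by mean, the other groups ran from E2+P4 through E2+DHT, DHT, MPA and E2+MPA to E2pre+P4. Neighbours in this order overlapped from E2+P4 up to MPA, whereas the arrays of E2+MPA lay above all MPA arrays, if only by the width of 7.87 to 7.88, and those of E2pre+P4 lay well above all E2+MPA arrays.

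**Figure D1:**
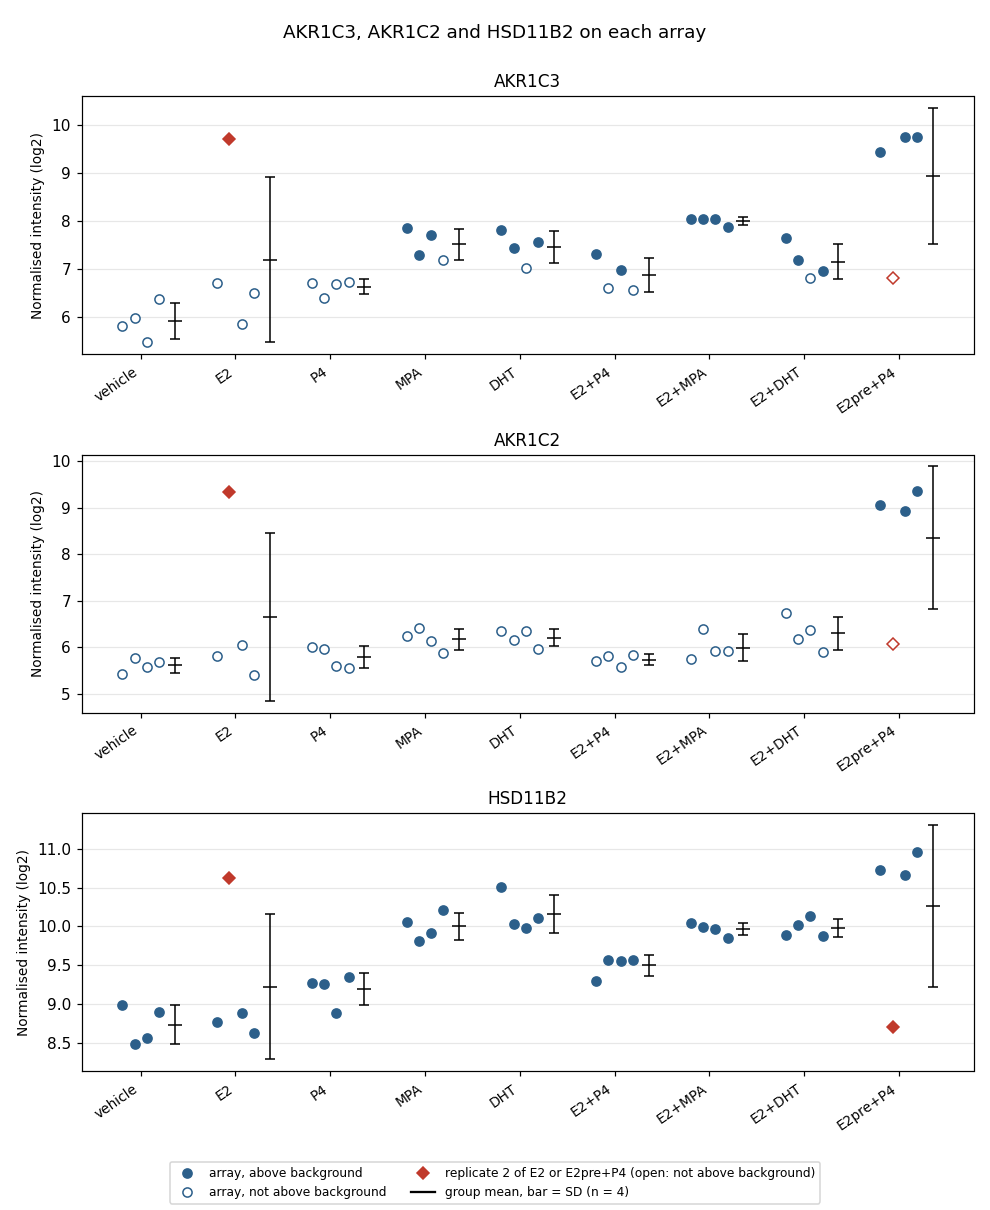
Normalised intensity (log2) of AKR1C3, AKR1C2 and HSD11B2 on each of the 36 arrays, by group. Filled symbols are arrays above background and open symbols arrays that were not, diamonds mark replicate 2 of E2 and of E2pre+P4, and the bars beside the points are the mean and SD of all 4 arrays. The diamond of E2 lies with the high arrays of E2pre+P4 in all 3 genes (9.72 for AKR1C3) and that of E2pre+P4 lies low (6.81).

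AKR1C2 separated the groups in another way. Only 1 of its 5 probes was ever above background, on 4 arrays, and these were replicates 1, 3 and 4 of E2pre+P4 (9.07, 8.94 and 9.35) and replicate 2 of E2 (9.33). The other E2 arrays were at 5.82, 6.06 and 5.40, and replicate 2 of E2pre+P4 was at 6.08. In the other 7 groups the 28 arrays lay between 5.41 and 6.73, all below background. The gene therefore passed the filter only through the arrays in which it was high, so the filter itself selected for a difference between groups. The other 4 AKR1C2 probes stayed between 4.98 and 5.64 on every array, including those where the detected probe was above 8.9. The files pair all 5 probes with a single RefSeq transcript and give no probe sequences, so which transcript each probe reads, and whether the probe also binds AKR1C1 RNA, was not tested.

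HSD11B2 was above background on all 36 arrays. The vehicle arrays were at 8.99, 8.48, 8.56 and 8.90, and 3 of the 4 E2 arrays lay among them (8.76, 8.88 and 8.63), with replicate 2 at 10.62. P4 gave 9.26, 9.25, 8.89 and 9.35, and E2+P4 gave 9.29, 9.57, 9.55 and 9.57. Of these 8 arrays, all but 1 P4 array lay above the vehicle range.

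The MPA and DHT groups were higher for HSD11B2, with or without E2. MPA gave 10.06, 9.81, 9.91 and 10.21, DHT gave 10.51, 10.03, 9.98 and 10.11, E2+MPA gave 10.04, 9.99, 9.96 and 9.85, and E2+DHT gave 9.89, 10.02, 10.13 and 9.87. These 4 groups overlapped each other, and their 16 arrays all lay above the 16 arrays of vehicle, P4, E2+P4 and, but for replicate 2, E2. E2pre+P4 gave 10.72, 10.66 and 10.96, above all of these, and 8.70 on replicate 2.

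SRD5A1 was also above background on all 36 arrays, and its order of groups was another. The lowest groups were P4 (9.08, 9.32, 9.16 and 9.04) and MPA (9.16, 9.29, 9.22 and 9.14), both tight, and the highest was DHT (10.19, 9.94, 9.40 and 10.03). The vehicle arrays were spread from 9.25 to 10.21 and overlapped every other group. All 4 DHT arrays were above all 8 arrays of P4 and MPA, whereas with E2 present E2+DHT, E2+MPA and E2+P4 overlapped.

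HSD17B4 and HSD17B8 were bright and steady. HSD17B4 lay between 10.86 and 11.56 over all arrays, and its group means spanned 0.30 against a spread within groups of 0.16 (SD). HSD17B8 lay between 10.41 and 11.33, and its means spanned 0.38 against an SD of 0.21. HSD17B11 was near the detection level, with its brightest probe above background on 5 arrays and between 6.22 and 7.65 on all, and its other 2 probes on 0. AKR1C1 (1 probe, 4.91 to 5.54) and STS (1 probe, 5.16 to 6.52) were above background on 0 of 36 arrays, so no level or change can be given for them. For AKR1C1 this included the E2pre+P4 arrays on which AKR1C2 and AKR1C3 were well above background.

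**Figure D2:**
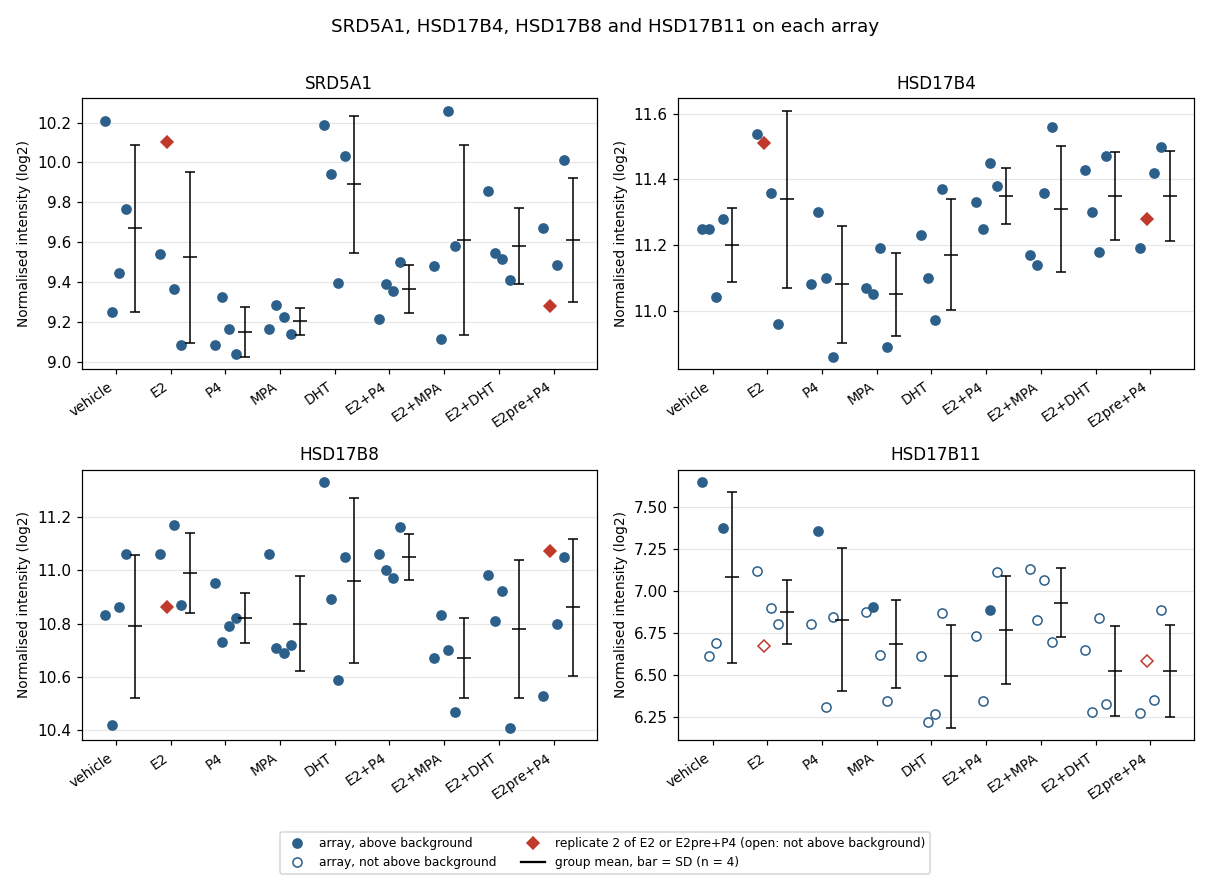
Normalised intensity (log2) of SRD5A1, HSD17B4, HSD17B8 and HSD17B11 on each array, by group, with the same symbols as in the plot of AKR1C3 and the mean and SD of 4 arrays. Each panel has its own scale. The DHT arrays of SRD5A1 lie above those of P4 and MPA, and HSD17B11 has 5 filled points.

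Each hormone group was then set against vehicle with limma over all 9902 genes that passed the filter, and genes under 0.05 after Benjamini-Hochberg adjustment are referred to as called. For the members a call is a description, since they were chosen with results known, and its share among all genes is given beside it. For AKR1C3 the vehicle and P4 arrays, and all E2 arrays but replicate 2, were below background. It passed the filter through the other arrays, so its calls as higher than these groups share that selection. All 8 comparisons share the 4 vehicle arrays. In the fits of 36 and of 34 arrays members were called only as higher than vehicle. For how many of all genes the arrays of the compared groups did not overlap was not counted. A lack of overlap in a member is therefore a description only.

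E2 for 16 h called 0 of the 7 members, where 0.949% of all genes were called higher (0.919% in the 34 arrays). AKR1C3 differed by 1.28 (95% interval 0.20 to 2.36) with all arrays and by 0.44 (-0.04 to 0.91) without the 2 arrays, and HSD11B2 by 0.49 and by 0.02 (-0.27 to 0.32). For HSD11B2 the interval without the 2 arrays allowed a rise of at most 0.32 on the log2 scale with E2 alone. For AKR1C3 the vehicle arrays and all E2 arrays but replicate 2 were below background, so no direction is read from its values.

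P4 alone also called 0 of 7, and limma called 0 of all genes (0%) although 2608 had an unadjusted p under 0.05. AKR1C3 stood 0.71 ± 0.53 (SE) above vehicle and HSD11B2 0.46 ± 0.33. The 2 arrays in doubt are in neither group but enter the shared variance, and without them the same differences had an SE of 0.21 and 0.13, and the intervals were 0.27 to 1.15 and 0.18 to 0.73. Neither was called in that fit either, where 0.0505% of genes were called higher. For AKR1C3 all P4 and vehicle arrays were below background, so no direction is read from its difference or interval.

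MPA alone called HSD11B2, 1 of the 7, with 0.808% of all genes called higher. It rose by 1.27 ± 0.33, or 2.41-fold, and no array overlapped vehicle. AKR1C3 was higher by 1.60 ± 0.53 and, since no vehicle array was above background, at least 1.38-fold higher. It was not called with all arrays and was called without the 2 arrays (SE 0.21, 2 of 7 members, 1.1% of all genes called higher).

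DHT alone gave much the same picture. HSD11B2 rose by 1.43 ± 0.33 (2.69-fold), again 1 of 7, with 1.1% of genes called higher. AKR1C3 was higher by 1.54 ± 0.53, at least 1.33-fold, and was called only without the 2 arrays (2 of 7 members, 1.23% of genes). AKR1C2 was below background in both groups, with fitted differences of 0.56 for MPA and 0.60 for DHT that are given no fold.

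The cotreatments with E2 were compared with vehicle in the same way. In E2+P4, 0 of 7 members were called (1.14% of genes called higher), and without the 2 arrays both HSD11B2 (0.76 ± 0.13) and AKR1C3 (0.95 ± 0.21) were called, 2 of 7 against 1.34%. For AKR1C3, however, 0 vehicle arrays and only 2 of 4 E2+P4 arrays were above background, so its size of rise is not bounded and no fold is given. In E2+MPA, AKR1C3 rose by 2.09 ± 0.53, at least 1.93-fold, and HSD11B2 by 1.23 ± 0.33, or 2.35-fold. These were 2 of 7 members, with 1.94% of genes called higher, and the same 2 were called without the 2 arrays (2.21%). In E2+DHT, HSD11B2 rose by 1.25 ± 0.33 (2.37-fold), 1 of 7 against 2.11%, and without the 2 arrays AKR1C3 (1.24 ± 0.21, at least 1.07-fold) joined it, 2 of the 6 members other than AKR1C2 against 2.39%. AKR1C2 also passed the threshold in that fit, but both groups were below background, so nothing is read from it.

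E2pre+P4 held the largest differences of the set. With all arrays AKR1C3 rose by 3.02 ± 0.53, AKR1C2 by 2.76 ± 0.55 and HSD11B2 by 1.53 ± 0.33, and as vehicle was below background for both AKR1C genes these were at least 3.70-fold and at least 2.48-fold. AKR1C2 passed the filter only through arrays in which it was high, so its call is not counted. AKR1C3 and HSD11B2 were 2 of the 6 other members, with 2.35% of all genes called higher. As the vehicle arrays of AKR1C3 were also below background, its call shares part of that selection. Leaving out the arrays in doubt, the differences were 3.73 ± 0.23 for AKR1C3 (at least 6.04-fold), 3.52 ± 0.19 for AKR1C2 (at least 4.20-fold) and 2.05 ± 0.14 for HSD11B2 (4.14-fold). The same genes were called then (2.6% of all genes called higher), and no array of these groups overlapped vehicle in any of them.

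**Figure D3:**
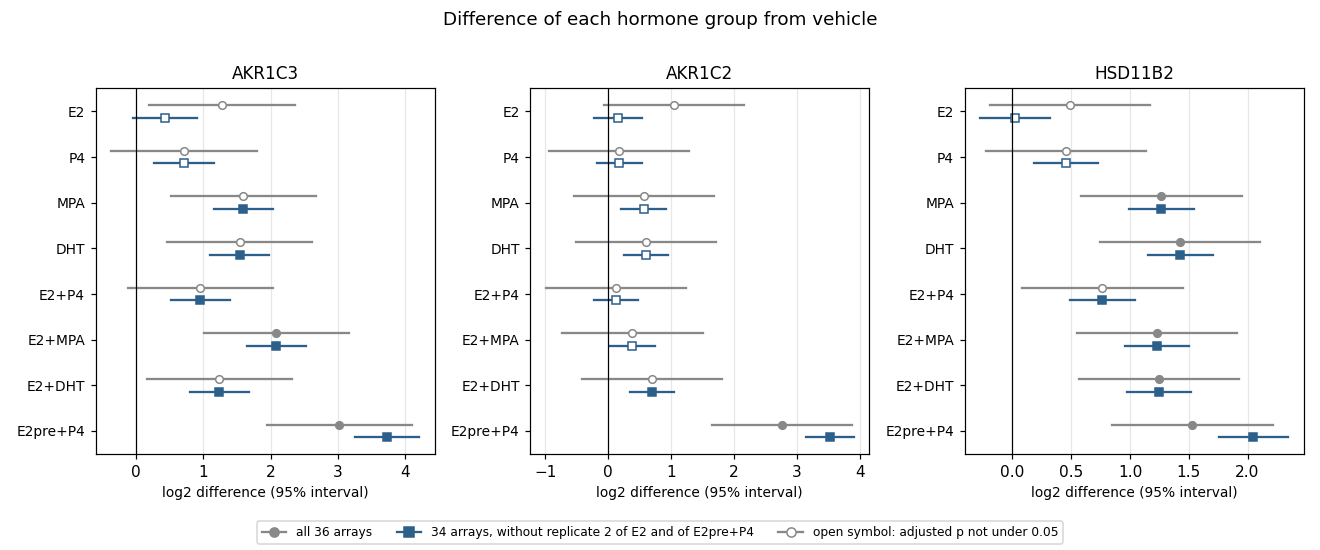
Difference from vehicle on the log2 scale, with its 95% interval, for AKR1C3, AKR1C2 and HSD11B2 in each hormone group. Grey circles are the fit of all 36 arrays and blue squares the fit of 34, and filled symbols are called at an adjusted p under 0.05. E2pre+P4 is highest in all 3 genes (3.02, 2.76 and 1.53 with all arrays), and the intervals of the 34 arrays are narrower throughout.

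The comparisons of each steroid with E2 alone include an array in doubt. With all arrays, adding P4, MPA or DHT to E2 called 0 of the 7 members, where limma called 0%, 0.566% and 0.576% of all genes higher (for P4, 92 genes had an unadjusted p under 0.05). HSD11B2 differed from E2 by 0.28 for P4, 0.74 for MPA and 0.76 for DHT, each with an SE of 0.33. After leaving them out the values were 0.74, 1.21 and 1.22 with an SE of 0.14, and HSD11B2 was called in all 3 comparisons, in which 0.0808%, 1.07% and 0.667% of genes were called higher. AKR1C3 joined it for MPA alone (1.65 ± 0.23, at least 1.82-fold, 2 of 7). Its difference for P4 turned from -0.32 to 0.52 and that for DHT from -0.04 to 0.80, neither called.

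Whether E2 changed the response to a steroid was asked with an interaction term. None was called for any member, with or without the 2 arrays. For AKR1C3 the interaction of E2 and DHT was -1.58 (95% interval -3.11 to -0.06) with all arrays and -0.74 (-1.39 to -0.09) without them. Vehicle and, without replicate 2, E2 were below background for this gene, so no direction is read from these values. The interactions of E2 and MPA were 0.05 (-0.59 to 0.70) for AKR1C3 and -0.06 (-0.46 to 0.34) for HSD11B2 in the 34 arrays. Over all genes limma called 0.0101% for P4, 0% for MPA and 0% for DHT in either direction (0%, 0.0202% and 0% in the 34 arrays), and 362, 1449 and 463 genes had an unadjusted p under 0.05.

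E2pre+P4 was also set against E2+P4. This comparison includes E2pre+P4 replicate 2, and 0 of 7 members were called with all arrays, where 0% of genes were called higher and 344 had an unadjusted p under 0.05. In the 34 arrays AKR1C2 was higher by 3.39 ± 0.19 (at least 4.13-fold), AKR1C3 by 2.78 ± 0.23 and HSD11B2 by 1.29 ± 0.14 (2.44-fold). All 3 were called. Only 2 of 4 E2+P4 arrays were above background for AKR1C3, so its size of rise is not bounded and no fold is given. AKR1C2 is again not counted, since it passed the filter only through arrays in which it was high. AKR1C3 and HSD11B2 were 2 of the 6 other members against 0.939% of all genes. In each of the 3 genes every E2pre+P4 array lay above every E2+P4 array.

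P4, MPA and DHT are related steroids that were applied at the same dose and time, so their levels could be compared directly in 3 pairs without E2 and 3 pairs with it. P4 and MPA share the pregnane skeleton, which in MPA carries a methyl group and an acetate ester, while DHT is an androstane without that side chain. With all arrays 0 of the 7 members were called in any of the 6 pairs.

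MPA exceeded P4 by 0.81 in HSD11B2 (95% interval 0.13 to 1.49) and by 0.88 in AKR1C3 (-0.20 to 1.96), with no overlap of arrays in either. In this pair limma called 0.353% of genes higher, which is not a share of genes without overlap. The AKR1C3 means lay at least 1.38-fold apart, a bound for the detection level only, and the interval includes no difference. DHT exceeded P4 by 0.97 in HSD11B2 (0.29 to 1.65), by 0.83 in AKR1C3 (-0.25 to 1.91) and by 0.74 in SRD5A1 (0.30 to 1.18), again without overlap. In this pair limma called 1.17% of genes higher. The AKR1C3 means lay at least 1.33-fold apart, with the same limit. In the 34 arrays the differences were the same with narrower intervals, and HSD11B2 was called for MPA over P4 (1 of 7 against 0.515%) and HSD11B2 and AKR1C3 for DHT over P4 (2 of 7 against 1.35%).

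DHT and MPA did not separate for HSD11B2 or AKR1C3. Their difference was 0.16 (-0.11 to 0.43) for HSD11B2 and -0.05 (-0.49 to 0.38) for AKR1C3 in the 34 arrays, intervals that still allow a difference of that size. SRD5A1 was 0.69 higher with DHT than with MPA (0.25 to 1.13 with all arrays) and not called, where 0.263% of genes were called higher (0.283% in the 34 arrays).

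With E2 present, MPA exceeded P4 in AKR1C3 by 1.13 ± 0.53 (0.05 to 2.21), which was called only in the 34 arrays (SE 0.21, 1 of 7 against 0.768%). DHT exceeded P4 by 0.28 in AKR1C3 (-0.16 to 0.72 in the 34 arrays) and lay 0.85 below MPA (-1.29 to -0.41), with no overlap between the E2+DHT and E2+MPA arrays and no call. For HSD11B2 both MPA and DHT were above P4, by 0.47 (0.19 to 0.74) and 0.48 (0.21 to 0.76) in the 34 arrays, neither called, and they differed from each other by 0.02 (-0.26 to 0.29). In these 3 pairs with E2, the shares of all genes called higher were 0.333% for MPA over P4, 0.586% for DHT over P4 and 0.162% for DHT over MPA with all arrays, and 0.768%, 0.687% and 0.263% in the 34 arrays.

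**Figure D4:**
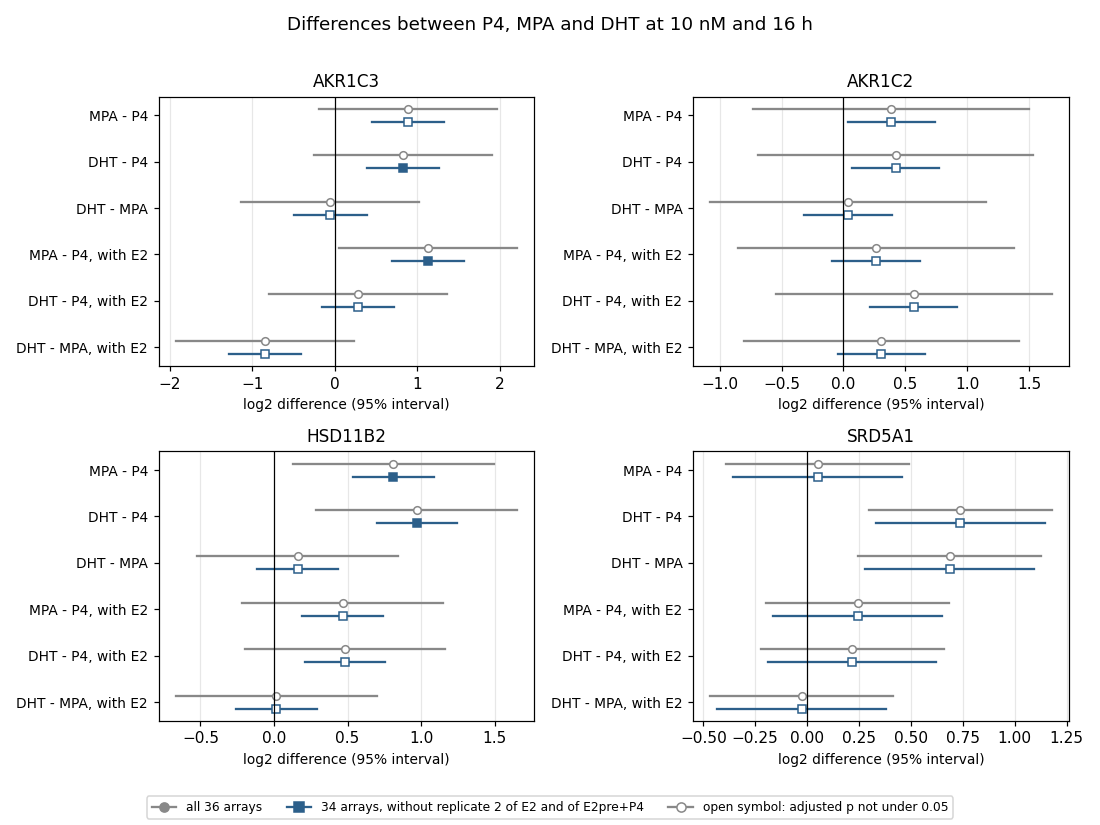
Differences between P4, MPA and DHT on the log2 scale with 95% intervals, alone and with E2, for AKR1C3, AKR1C2, HSD11B2 and SRD5A1. Grey circles are the fit of 36 arrays, blue squares that of 34, and filled symbols are called at an adjusted p under 0.05. Only squares are filled, 4 in all, and SRD5A1 has its largest difference for DHT over P4 (0.74).

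The 3 members that moved also varied together across arrays. Over all 36 arrays Pearson's r was 0.85 for AKR1C3 with HSD11B2, 0.85 for AKR1C3 with AKR1C2 and 0.69 for AKR1C2 with HSD11B2. After leaving out E2pre+P4 and the E2 array in doubt, r over the 31 other arrays was 0.81, 0.52 and 0.64, though AKR1C2 and part of the AKR1C3 values were then below background. The arrays share their treatment groups, so these are descriptions. SRD5A1 had an r between 0.19 (HSD17B8) and 0.48 (HSD17B4) with the other members.

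For AKR1C3 and AKR1C2, the members with the widest range of group means, the genes with the most similar pattern over the 9 group means were listed. They were EMP1 (r = 0.98), TRNP1 (0.97), SGPP2 (0.95), ANXA2 (0.91) and CALD1 (0.91) for AKR1C3, and the same 5 stood in the same order without the 2 arrays. For AKR1C2 they were ERRFI1 (0.95), HELZ2 (0.94), BASP1 (0.94), MYADM (0.94) and AUTS2 (0.93), of which all but MYADM were again among the first 5. AKR1C2 was above background only in E2pre+P4 and on the E2 array in doubt. Its r values therefore rest largely on those arrays, and its other means have no reliable order. All these genes were picked as the highest of all genes tested, so each r is a description. ERRFI1 encodes a feedback inhibitor of the epidermal growth factor receptor and ANXA2 a membrane-binding annexin. The difference between E2pre+P4 and vehicle was 2.21 for EMP1, TRNP1 2.21 and CALD1 2.71, and only 0.37 for ANXA2, so that likeness of pattern did not mean likeness of size.

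Other enzymes of steroid conversion were taken from a list of 40 genes chosen by their textbook roles. Earlier results of these arrays were known when the list was made, so its calls and adjusted p-values are given as a description. Of these, 37 had a probe, 17 passed the filter and 20 were above background on 0 arrays, among them the aromatase gene CYP19A1, CYP17A1, HSD3B1, HSD3B2, HSD11B1, SRD5A2 and AKR1C4. Against vehicle, limma called 0 of the 17 in E2, P4, E2+P4 and E2+MPA (at an unadjusted p under 0.05, 2, 4, 2 and 2), 1 in MPA, 2 in DHT, 1 in E2+DHT and 3 in E2pre+P4 (2 in the 34 arrays), all higher, beside the shares of all genes given above. The median difference of the 17 was 0.25 in P4, 0.20 in MPA, -0.12 in DHT and 0.15 in E2pre+P4, and that of all genes was -0.12, -0.12, -0.03 and -0.06.

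HSD17B2, which oxidises estradiol and testosterone to their weak 17-keto forms, was called in 3 of the comparisons with vehicle. It lay between 6.97 and 7.85 in vehicle, 8.53 and 8.73 in MPA, 8.45 and 9.50 in DHT, and 8.17 and 8.84 in E2+DHT, without overlap with vehicle. It rose by 1.25 ± 0.23 with MPA (limma adjusted p = 0.00187), by 1.55 ± 0.23 with DHT (adjusted p = 6.96e-05) and by 1.22 ± 0.23 with E2+DHT (adjusted p = 0.000778). DHT also exceeded P4, by 1.27 (adjusted p = 0.00101) without E2 and by 0.93 (adjusted p = 0.0456) with it. Unlike the members above, HSD17B2 was not high in E2pre+P4, where it lay between 7.36 and 8.11.

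SULT2B1, a sulfotransferase of cholesterol and hydroxysteroids, rose by 0.74 ± 0.18 with DHT (limma adjusted p = 0.0189), from 8.95 to 9.55 in vehicle to 9.71 to 10.13. In E2pre+P4 the calls were HSD17B1, which reduces estrone to estradiol (1.30 ± 0.35, adjusted p = 0.0238), the catechol-forming enzyme CYP1B1 (1.34 ± 0.41, adjusted p = 0.0442) and the retinol and steroid dehydrogenase RDH16 (at least 1.15-fold). Vehicle replicate 1 was far below the other vehicle arrays for HSD17B1 (5.65 against 7.77 to 8.12) and for CYP1B1 (8.74 against 11.40 to 12.19), and without that array 0 of the 17 genes were called in E2pre+P4. RDH16 was above background on replicates 1, 3 and 4 of E2pre+P4 (7.31, 7.59 and 8.01) and on replicate 2 of E2 (7.86) only, the same 4 arrays as AKR1C2, so it too passed the filter through them. The filter thus selected RDH16 on the arrays where it was high, so nothing is read from its call. Without the 2 arrays in doubt the bound was higher. In the 34 arrays HSD17B1 differed from vehicle by 1.34 ± 0.39 (limma adjusted p = 0.0404) and CYP1B1 by 1.32 ± 0.45 (adjusted p = 0.0894, no longer called). Against E2+P4, 0 of the 17 were called with all arrays and 1, RDH16, in the 34.

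**Figure D5:**
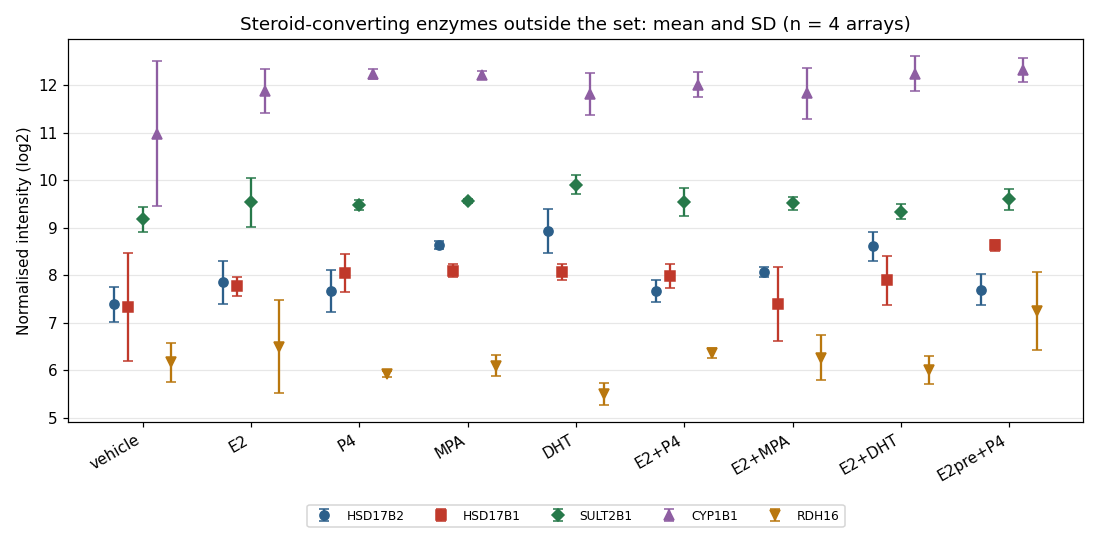
Normalised intensity (log2) of the 5 other steroid-converting enzymes called in any comparison with vehicle, as the mean and SD of 4 arrays in each group. HSD17B2 is highest in DHT, MPA and E2+DHT (up to 9.50 on an array), and the long vehicle bars of CYP1B1 and HSD17B1 come from replicate 1 (8.74 and 5.65).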

How the data were processed

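Total RNA was hybridised to Illumina HumanWG-6 v3 arrays, and the authors deposited non-normalised probe intensities with a detection column for each array. That column rose with the signal, so the detection p-value was taken as 1 minus the deposited value. A second deposited table held intensities of the same arrays that were a straight-line transform of these signals, with an unstated constant and scale per array, and served as an alternative. The study's methods name VSN and ComBat, whose effect was not seen in the deposited values, and its processing notes name limma.

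Intensities were corrected with limma 3.58.1 in R 4.3.3 (neqc, negative controls inferred from detection p-values, offset 16, quantile normalisation) and taken to log2. Probes with 1 gene symbol and a detection p-value under 0.01 on at least 4 arrays were kept, and each gene was read from its probe with the highest mean, giving 9902 genes. Of the 48803 probes, 27578 had 1 symbol in the platform annotation, 13 several and 21212 none. A linear model of 9 group means with moderated variances gave 21 comparisons, adjusted by Benjamini-Hochberg over all genes. Where a group was nowhere above background, a fold change is a lower bound: the mean of the brighter group over the mean, per array of the dimmer group, of the dimmest detected signal or the probe's own value if higher. Such a bound concerns the detection level and does not cover the spread between arrays. Precision is limited by the 4 arrays per group. The model was tested on simulated data.

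The members and the lists were chosen with earlier results of these data known. Named were all members, listed enzymes called in a comparison with vehicle, the 5 genes most like each of the 2 members with the widest range of group means, and 3 genes for the check of labels. RDH16, CYP1B1, HSD17B1, HSD17B2 and SULT2B1 came from that rule. Alternatives covered the normalisation, background, offset, filter, probe choice, samples in the fit, blocks, the 2 arrays in doubt and each array left out. Sequences were from RefSeq (GRCh38.p14).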

Additional observations from a re-analysis of the deposited data

Results flagged for a closer look

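In each group of 4 arrays, 10 of 63 combinations of member and group had an array whose gap to its nearest neighbour took up more of the group's range than Dixon's 95% critical value, where chance gives 3.15. Of these, 5 were replicate 2 of E2 or of E2pre+P4, described above: AKR1C2 at 9.33 in E2 (others 5.40 to 6.06) and at 6.08 in E2pre+P4 (8.94 to 9.35), AKR1C3 at 6.81 in E2pre+P4 (9.44 to 9.76), and HSD11B2 at 10.62 in E2 (8.63 to 8.88) and at 8.70 in E2pre+P4 (10.66 to 10.96). The other 5 were smaller in size. AKR1C3 was at 6.40 on P4 replicate 2 (others 6.68 to 6.73) and at 7.88 on E2+MPA replicate 4 (8.04 to 8.05). HSD11B2 was at 9.29 on E2+P4 replicate 1 (9.55 to 9.57), HSD17B4 at 11.04 on vehicle replicate 3 (11.25 to 11.28), and HSD17B8 at 11.06 on MPA replicate 1 (10.69 to 10.72).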

How the results depend on the processing

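No called difference of a member changed sign under any alternative tried, and the limits lay in the number of members called. The counts of members below include AKR1C2 where it was called, in E2+DHT and in the comparisons of E2pre+P4. As above, these AKR1C2 calls are not counted as results. Without the 2 arrays in doubt the counts of members against vehicle were 2 in MPA, 2 in DHT, 2 in E2+P4 and 3 in E2+DHT, and they were 1, 2 and 1 for P4, MPA and DHT added to E2, 3 for E2pre+P4 against E2+P4, 1 for MPA over P4, 2 for DHT over P4, and 1 for MPA over P4 with E2. Fitting only the groups compared gave 2 in MPA, 2 in DHT, 2 in E2+DHT and 0 in E2pre+P4, 2 for MPA over P4 and 1 for DHT over P4, and in the list of other enzymes 0 in DHT and 0 in E2pre+P4. That fit called 40, 32, 175 and 76 of all 9902 genes in MPA, DHT, E2+DHT and E2pre+P4, in either direction. The main fit called 194, 238, 476 and 612, so calls fell over all genes. Without the filter 0 members were called in MPA and 1 listed enzyme in E2pre+P4, and without background correction 1 member in E2+MPA. Over all genes these settings called 163 and 586 of 18665 genes, and 395 of 9902, in either direction. Sets of 6 consecutive columns as a block gave 0 members in DHT, and 1 listed enzyme in each of DHT and E2pre+P4. That block called 181 of 9902 genes in DHT and 406 in E2pre+P4. Cyclic loess called 1 member (SRD5A1) for DHT over P4 and 1 listed enzyme in E2+MPA. Cyclic loess called 445 of 9902 genes in E2+MPA, and its calls over all genes for DHT over P4 were not counted. It also moved the median of all genes in P4 from -0.12 to 0.01, so that P4 and MPA differences with quantile normalisation are relative to that shift, and the share of all calls that were higher was 41.2% in MPA, 43.9% in E2+DHT and 38.1% in E2pre+P4 with quantile normalisation and 57.3%, 57.6% and 55.5% with cyclic loess. Same-numbered arrays of different groups had a mean correlation of deviations of 0.017, over 0.1 in 65 of 144 pairs, so the numbers were not taken to pair samples. With the replicate number as a block 0 members were called in MPA, where 196 of 9902 genes were called.

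Leaving out single arrays gave 0 to 2 members in MPA (2 without E2 replicate 2, E2pre+P4 replicate 2 or vehicle replicate 2, and 0 without vehicle replicate 1, 3 or 4 or any MPA replicate), 0 to 2 in DHT (2 without E2 replicate 2, 0 without DHT replicate 1), 0 to 2 in E2+MPA (0 without vehicle replicate 3, 1 without vehicle replicate 1 or 2 or E2+MPA replicate 2, 3 or 4), 0 to 2 in E2+DHT (2 without vehicle replicate 2, 0 without vehicle replicate 3 or E2+DHT replicate 2 or 3) and 3 to 4 in E2pre+P4 (4 without vehicle replicate 2). The call added without vehicle replicate 2 in E2+DHT and in E2pre+P4 was HSD17B11, lower by a log2 difference of -0.71 in both. It gave 0 to 2 for MPA added to E2 and 0 to 1 for DHT added to E2 (the higher counts without E2 replicate 2), 0 to 3 for E2pre+P4 against E2+P4 (3 without E2pre+P4 replicate 2, 2 without E2 replicate 2) and 0 to 1 for DHT over P4 (1 without DHT replicate 3, E2+MPA replicate 3 or E2pre+P4 replicate 2). For the listed enzymes the ranges were 0 to 3 in P4, 1 to 4 in MPA and 1 to 3 in E2+DHT (the highest without vehicle replicate 2, and in E2+DHT 2 without vehicle replicate 3 or E2+DHT replicate 1), 0 to 1 in E2+P4 (vehicle replicate 2) and E2+MPA (vehicle replicate 4), 1 to 2 in DHT (1 without vehicle replicate 1 or 3 or DHT replicate 1 or 2), and 0 to 4 in E2pre+P4 (0 without vehicle replicate 1 or E2pre+P4 replicate 1 or 3, and 1 without any of 13 other arrays). The cause of these changes was not tested beyond the arrays named. Calls over all genes were not counted with single arrays left out, so these ranges are a description only.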

Other observations

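AKR1D1, which encodes the 5β-reductase of steroids and is known from liver, had 2 probes that disagreed: 1 lay between 12.98 and 14.22 and was above background on all 36 arrays, and the other lay between 5.18 and 6.28 and was above background on 0. The annotation pairs both with the same gene. What the brighter probe reads was not tested, and it was called in 0 of the 21 comparisons.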
